A study of Marchantia polymorpha with 12 samples.

Results

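The genes described are MpBPCU (MpUg00370), MpBPCV (MpVg00350) and the MpFGMYB locus (Mp1g17210) of the liverwort Marchantia polymorpha. They were taken by locus identifier and make up 3 of the 18336 genes, and 8 of the 23399 transcript models, in the deposited table. RNA was sequenced from thalli with rhizoids grown from gemmae for 3 weeks. The 12 libraries fall into 4 groups of 3, with replicates A, B and C. The groups are the male line Mpfer-1, labelled a knockdown of MpFER; the male wild type Tak-1; the female line Mpmri-1, labelled a knockdown of MpMRI; and the female wild type Tak-2. MpFER is the Marchantia homologue of the receptor kinase FERONIA and MpMRI that of the kinase MARIS, and the study compared each line with the wild type of the same sex in search of pathways downstream of them. Each targeted gene was measured in a line of 1 sex only, so the line, its targeted gene and its sex cannot be told apart across lines. The labels do not say whether replicates came from separate cultures, so the p-values measure the spread between these libraries, which may be technical.

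Marchantia is haploid, and each plant carries either a female U or a male V sex chromosome. MpBPCU, also called Feminizer, is a transcription factor of the BASIC PENTACYSTEINE family on the U chromosome and is the dominant determinant of female sex. MpBPCV is its counterpart on the V chromosome. MpFGMYB is an autosomal MYB transcription factor that promotes female differentiation. In males a long noncoding RNA called SUF is transcribed from the opposite strand of the MpFGMYB locus and represses it, and in females Feminizer represses SUF.

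The library totals were between 25548031 and 35313206 counts, and levels are given as counts-per-million (CPM) of the library total scaled by the trimmed mean of M values (TMM). Each gene was tested with edgeR's quasi-likelihood test over the 14044 genes that passed the filter on low counts, and a gene was called at a Benjamini-Hochberg adjusted p under 0.05. MpFER (Mp4g15890) averaged 95.4 ± 6.26 CPM in Mpfer-1 and 164 ± 8.41 CPM in Tak-1 (SD, n = 3 each), a log2 fold change of -0.78 ± 0.0807 (SE; edgeR adjusted p = 7.18e-06). MpMRI (Mp7g17560) averaged 704 ± 57.9 CPM in the Mpmri-1-labelled libraries and 267 ± 2.3 CPM in Tak-2 (SD, n = 3 each), which is 2.64-fold higher (edgeR adjusted p = 4.42e-08). The transcript of the targeted gene therefore goes against the knockdown label in that line, and its samples are called the Mpmri-1-labelled libraries wherever a direction is drawn from them. Of the genes called between male and female libraries, 49.5% were higher in males, a share that becomes 83.4% when library totals are used without TMM scaling. The median over all genes is 0.02 on the log2 scale with TMM and 0.29 without it.

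MpBPCV was detected in every male library and in no female library. Mpfer-1 replicates A, B and C had 1116, 1089 and 1455 counts, or 32.2, 33.6 and 35.4 CPM. In Tak-1 it had 980, 1077 and 1111 counts, or 32.6, 33.9 and 31.7 CPM. All 3 Mpmri-1-labelled libraries and all 3 Tak-2 libraries had 0 counts. A count of 0 allows up to 3 counts over the group, which is 0.0369 CPM for the Mpmri-1-labelled libraries and 0.0372 CPM for Tak-2, for counting error only. Against a limit of 3 counts over all the female libraries together, MpBPCV was at least 1799-fold higher in male than in female libraries. This is a description, and no p is given for it, since only males carry the V chromosome.

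The levels of MpBPCV in the male groups overlapped and were not called different. It averaged 33.7 ± 1.6 CPM in Mpfer-1 and 32.7 ± 1.08 CPM in Tak-1 (SD, n = 3 each). The log2 fold change of Mpfer-1 over Tak-1 was 0.04, with a 95% interval of -0.16 to 0.24 (SE 0.0873; edgeR adjusted p = 0.702). The DESeq2 Wald test gave 0.02 (adjusted p = 0.871). In this comparison 56.2% of the genes tested were called in either direction.

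MpBPCU had the mirror pattern across the sexes and also differed between the female groups. Replicates A, B and C of the Mpmri-1-labelled libraries had 311, 489 and 491 counts, or 14.6, 16.5 and 16.2 CPM. In Tak-2 it had 550, 650 and 677 counts, or 22.9, 23.9 and 23.0 CPM. Every Mpmri-1-labelled library was below every Tak-2 library. All 3 Mpfer-1 libraries and all 3 Tak-1 libraries had 0 counts, which allows up to 0.0277 CPM in Mpfer-1 and 0.031 CPM in Tak-1. Against the limit of 3 counts over the males, MpBPCU was at least 1336-fold lower in male than in female libraries, again as a description.

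MpBPCU averaged 15.7 ± 1.02 CPM in the Mpmri-1-labelled libraries and 23.3 ± 0.517 CPM in Tak-2 (SD, n = 3 each), and was 1.48-fold lower in the line. The log2 fold change was -0.56, with a 95% interval of -0.81 to -0.31 (SE 0.108; edgeR adjusted p = 0.00224). This difference was larger than the spread between replicates. It has to be read against a comparison in which 31.1% of all genes tested were called lower and 33.1% were lower without overlap between libraries. In whole thalli, fewer cells that express a gene and less of its RNA per cell cannot be told apart.

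At the MpFGMYB locus, counts were found in male libraries and were nearly absent from female libraries. Mpfer-1 replicates A, B and C had 165, 105 and 201 counts, or 4.77, 3.24 and 4.89 CPM. Tak-1 had 109, 126 and 134 counts, or 3.63, 3.96 and 3.83 CPM. The Mpmri-1-labelled libraries had 0 counts, and Tak-2 had 0, 1 and 2 counts in A, B and C. Every male library was above every female library, and the 6 male libraries held 840 counts in all against 3 in the 6 female libraries. This sex pattern is the opposite of that known for MpFGMYB and is the one known for SUF. The library kit keeps strand, but whether the counting used it is not given in the sources used here, so reads of MpFGMYB and reads of the antisense RNA cannot be told apart.

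Over all libraries the ratio of male to female counts at the locus, corrected for library size, was 221, with an exact 95% counting interval of 75.5 to 1075. Between the wild types, Tak-1 over Tak-2, the ratio was 102, with an interval of 34.8 to 499. Mpfer-1 was at least 118-fold above the Mpmri-1-labelled libraries, against the limit of 3 counts over that group. The intervals cover counting error only. The locus passed the filter on low counts through the male groups alone, so a gene that passed in this way had to differ between the sexes. These ratios are therefore given as a description, with no p.

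The locus was called higher by edgeR in all 3 of these comparisons, a call set by how it passed the filter, from which nothing is read. Among the genes tested, 24.0% were called higher in males, 18.0% were called higher in Tak-1 than in Tak-2, and 24.2% were called higher in Mpfer-1 than in the Mpmri-1-labelled libraries. A complete separation was less frequent: 3.80% of genes were higher in all 6 male libraries than in all 6 female libraries. Only 0.235% of genes, or 33, did so with at most 3 counts over the females. By their identifiers 8 of these 33 lie on autosomes, which is 0.0570% of the genes tested, and MpFGMYB is 1 of the 8.

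Within a sex, no difference beyond the replicate spread was detected at the MpFGMYB locus. The level averaged 4.3 ± 0.922 CPM in Mpfer-1 and 3.81 ± 0.169 CPM in Tak-1 (SD, n = 3 each), and the libraries overlapped, with Mpfer-1 replicate B the lowest of the 6. The log2 fold change of Mpfer-1 over Tak-1 was 0.18, with a 95% interval of -0.35 to 0.70 (SE 0.228; edgeR adjusted p = 0.534). Between the Mpmri-1-labelled libraries and Tak-2 both groups were at or under 3 counts, so no fold is given (edgeR adjusted p = 0.0618; 64.1% of all genes tested were called there). Without Tak-2 replicate A that adjusted p was 0.0378, still on 0 against 3 counts. The difference between the effects of the 2 lines gave an edgeR adjusted p of 0.0753, with the Mpmri-1-labelled libraries at 0, and 37.3% of genes were called for such a difference. The locus passed the filter through the males alone, and these last 3 adjusted p rest on 0 against 3 female counts. They cannot decide whether the female groups or the line effects differ, and nothing is read from them.

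**Figure D1:**
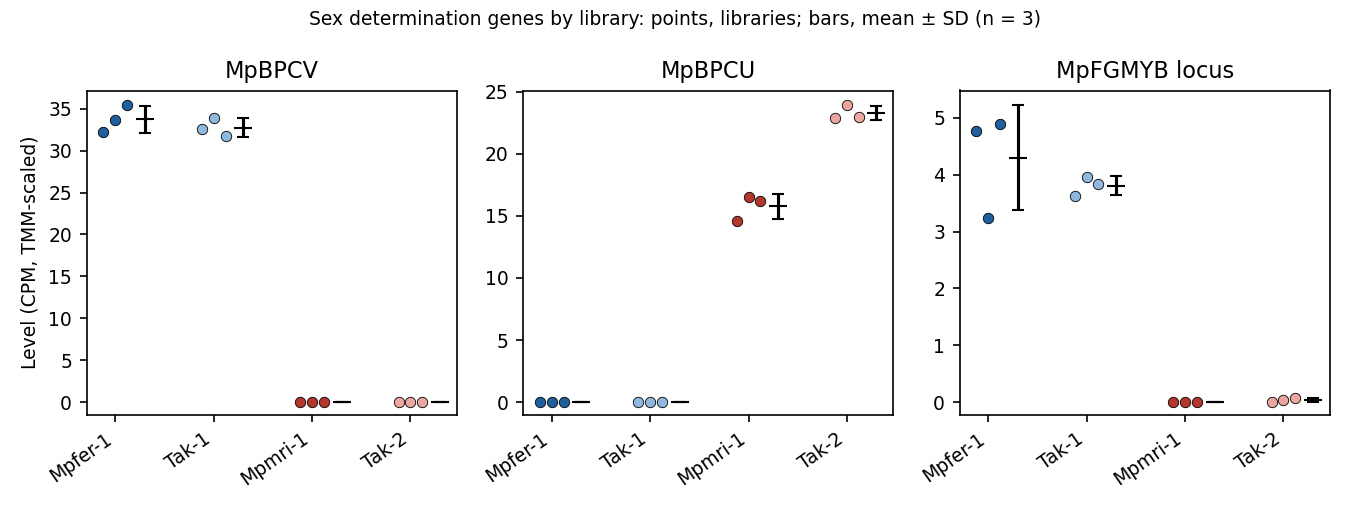
Level of MpBPCV, MpBPCU and the MpFGMYB locus in each of the 12 libraries, in CPM on linear axes that differ between panels. Points are libraries and bars are the mean ± SD of 3. MpBPCV lies between 31.7 and 35.4 CPM in all 6 male libraries, MpBPCU is lower in each Mpmri-1-labelled library than in each Tak-2 library, and the MpFGMYB locus has signal in the males.

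The deposited table splits each gene into transcript models, whose counts are estimates where models share reads. MpBPCV and MpBPCU have 2 models each and MpFGMYB has 4. Model 2 of MpBPCV took 75.6 ± 2.21% of the gene's counts in Mpfer-1 and 73.4 ± 2.15% in Tak-1 (SD, n = 3 each). The difference of 2.15 percentage points gave p = 0.5 in a two-sided exact permutation test, in which 3 against 3 libraries cannot go below 0.10. Neither MpBPCV model was called between Mpfer-1 and Tak-1, where 43.7% of the 17665 models tested were. Model 1 had a log2 fold change of -0.08 (edgeR adjusted p = 0.774) and model 2 one of 0.08 (edgeR adjusted p = 0.579).

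For MpBPCU the shares of the models overlapped between the female groups, while the total differed. Model 1 took 77.4 ± 6.61% of its counts in the Mpmri-1-labelled libraries and 77.7 ± 5.57% in Tak-2 (SD, n = 3 each). The share of model 2 differed by 0.352 percentage points (exact permutation test, two-sided, p = 0.9; smallest possible 0.10). Both models had a log2 fold change of -0.54 in the Mpmri-1-labelled libraries against Tak-2. Model 1 was called lower (SE 0.156; edgeR adjusted p = 0.0242) and the less abundant model 2 was not (SE 0.321; edgeR adjusted p = 0.202), in a comparison where 24.6% of models were called lower.

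At the MpFGMYB locus model 1 had 0 counts in all 12 libraries, and the other models divided the male counts differently from library to library. Model 2 held 60, 33.6 and 49.8% of the locus in replicates A, B and C of Mpfer-1, against 41, 62.9 and 55.7% in Tak-1. Its mean share was 47.8 ± 13.3% in Mpfer-1 and 53.2 ± 11.2% in Tak-1 (SD, n = 3 each; exact permutation test, two-sided, p = 0.6; smallest possible 0.10). Model 4 held 0, 34.6 and 38.1% in Mpfer-1, against 7.04, 13.3 and 0% in Tak-1. The spread within each group was thus wide, and the 3 models detected had edgeR adjusted p between 0.398 and 0.943 for Mpfer-1 against Tak-1.

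Models 2, 3 and 4 passed the filter on low counts through the males alone, so their levels by sex are given as a description. The 3 counts in Tak-2 were all assigned to model 3.

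**Figure D2:**
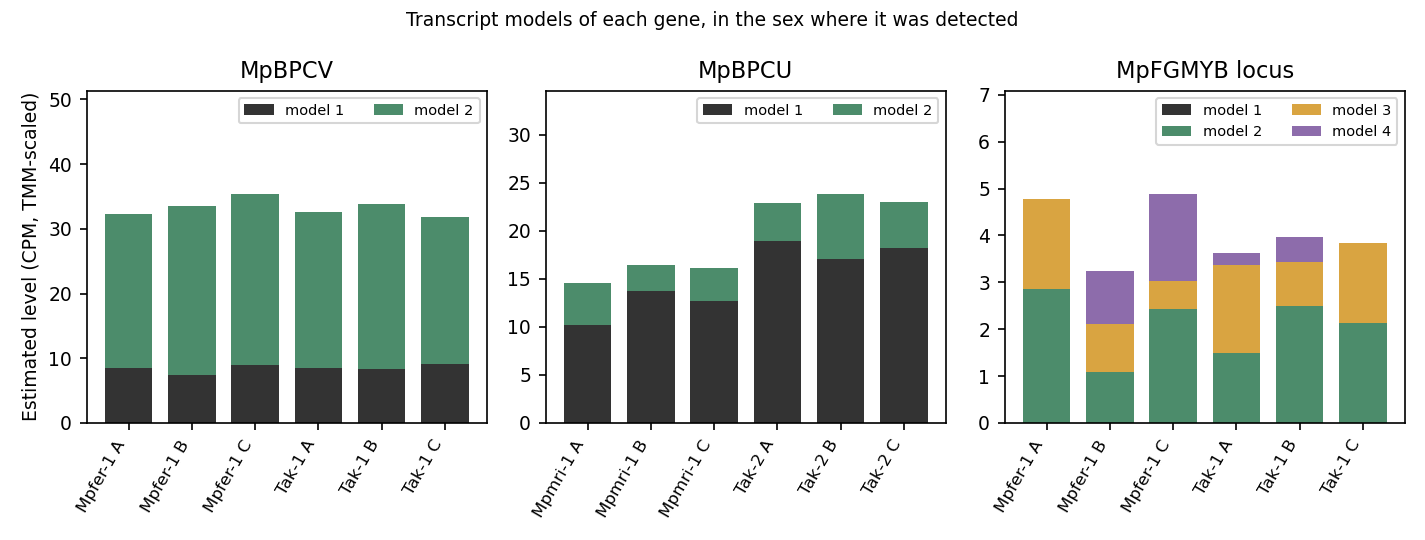
Estimated level of each transcript model, in CPM and stacked to the gene's level, in the libraries of the sex in which the gene was detected. Model 2 makes up most of MpBPCV and model 1 most of MpBPCU in every library shown, while the shares of models 2, 3 and 4 of the MpFGMYB locus change between replicates, with model 4 at 0 in Mpfer-1 A and Tak-1 C.

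The loci numbered next to each gene show how local these patterns were. MpBPCV has 9 neighbours within 5 locus numbers in the table, of which 5 were tested. MpVg00300, MpVg00310, MpVg00330 and MpVg00340 had 0 counts in every female library, like MpBPCV. MpVg00320 was detected in both sexes, at 4.17 ± 0.692 CPM in the Mpmri-1-labelled libraries and 8.69 ± 0.54 CPM in Tak-2 (SD, n = 3 each; log2 fold change -1.05, SE 0.212; edgeR adjusted p = 0.000965). Between Mpfer-1 and Tak-1 the 5 tested neighbours had edgeR adjusted p from 0.182 to 0.712 and log2 fold changes from -0.13 to 0.33, a range that holds that of MpBPCV.

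Around MpBPCU all 10 neighbours were tested. Between the Mpmri-1-labelled libraries and Tak-2, 4 were called lower, 2 were called higher and 4 were not called. Over all genes tested 64.1% were called in this comparison and 31.1% were called lower, so the neighbours were called about as often. The 4 lower loci were MpUg00320 (-0.35), MpUg00330 (-0.72), MpUg00340 (-0.96) and MpUg00420 (-0.47), as log2 fold changes. The nearest numbers on either side, MpUg00360 (-0.04; edgeR adjusted p = 0.741) and MpUg00380 (0.01; edgeR adjusted p = 0.965), were not called. MpUg00400 was higher by 1.95 and MpRAB11AX (MpUg00350) by 0.27, the second of these only just (edgeR adjusted p = 0.0486, and 0.265 with library totals). MpUg00330 and MpUg00400 also carried counts in males, so a U identifier does not by itself mean detection in females alone.

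Of the 34 U-chromosome genes tested, 27 had at most 3 counts over the males, MpBPCU included. Between the Mpmri-1-labelled libraries and Tak-2, 64.1% of all genes tested were called. Of the 27, 8 were called lower, 4 were called higher and 15 were not called. Their median log2 fold change was -0.14, with a range from -0.77 to 1.57. With library totals 12 were called lower and the 4 higher calls were lost. In 2 of the others the value was below that of MpBPCU. On the V chromosome 26 of 44 tested genes had at most 3 counts over the females, MpBPCV included. Between Mpfer-1 and Tak-1, where 56.2% of all genes tested were called, 6 of the 26 were called higher, 2 lower and 18 not. Their median was 0.09, with a range from -8.43 to 2.15, and 11 had a value below that of MpBPCV. With library totals 11 were called higher and 2 lower.

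The MpFGMYB locus stood apart from most of its neighbours, which were detected in both sexes. Of its 10 neighbours within 5 numbers 7 were tested. Between male and female libraries, where 48.6% of all genes tested were called, 2 were called higher and 1 lower. These were MpACS2 (Mp1g17180; log2 fold change 0.14), Mp1g17260 (0.33) and MpTHIO (Mp1g17170; -0.39). With library totals 5 were called higher and MpTHIO lost its call (-0.12; edgeR adjusted p = 0.155), with 0.41 for MpACS2 and 0.59 for Mp1g17260. The adjacent locus Mp1g17200 was too low to be tested, yet it had 3, 4 and 3 counts in Mpfer-1 and 2, 3 and 4 in Tak-1, against 0 in every female library. Mp1g17190, the locus beyond Mp1g17200, had between 0 and 10 counts a library. On the other side, Mp1g17220 (MpSYP7B) had 0 counts in all 12 libraries.

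In Mpfer-1 against Tak-1, 2 of the 7 tested neighbours were called higher and 1 lower, where 56.2% of all genes tested were called. In the Mpmri-1-labelled libraries against Tak-2, 2 were called lower, where 64.1% of all genes tested were called. The called share of the neighbours was below that of all genes, but 7 genes are few and the difference in share was not tested. The locus itself was called in neither line, and in females it had too few counts for a call to be likely. Mp1g17160 was 3.34 ± 1.11 CPM in Mpfer-1 and 0.383 ± 0.145 CPM in Tak-1 (SD, n = 3 each; log2 fold change 3.12, SE 0.504; edgeR adjusted p = 0.000232). Mp1g17260 was also higher, by 0.64 (SE 0.128; edgeR adjusted p = 0.0011). MpACS2, named for the enzyme ACC synthase, was lower in Mpfer-1 (log2 fold change -0.16; edgeR adjusted p = 0.0337), a value that became 0.01 with library totals. In the Mpmri-1-labelled libraries it fell by 0.63 on the log2 scale (edgeR adjusted p = 2.39e-06), and Mp1g17250 fell by 0.38 (edgeR adjusted p = 0.000851).

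**Figure D3:**
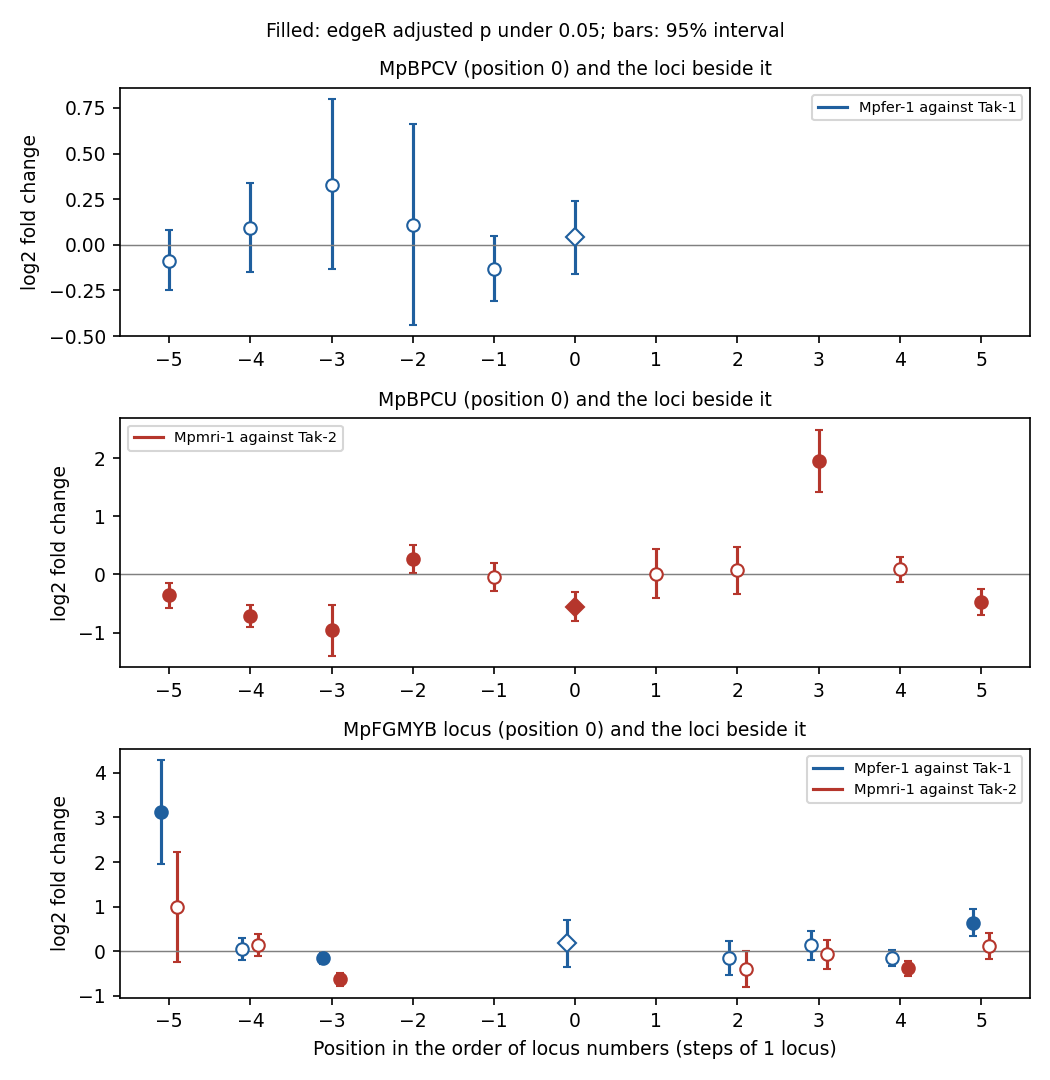
Log2 fold change of each gene (diamond, position 0) and of the tested loci within 5 locus numbers of it (circles), with 95% intervals; filled symbols have an edgeR adjusted p under 0.05. MpBPCU is lower (-0.56) in the Mpmri-1-labelled libraries while MpUg00360 and MpUg00380 beside it are near 0, and no filled symbol appears around MpBPCV. The Mpfer-1 value of MpACS2, at position -3 of the MpFGMYB panel, is -0.16 with TMM scaling and 0.01 with library totals.

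The genes most like each member were sought by Pearson's r of log2(CPM + 1) over the 12 libraries, which share the split by sex. For MpBPCV they were MpVg01180, MpVg00510 and MpVg00970, with r of at least 0.9999. Their log2 fold changes of Mpfer-1 over Tak-1 were 0.03, -0.05 and 0.08 (edgeR adjusted p = 0.749, 0.596 and 0.338). With library totals that of MpVg00510 was 0.13, and that of MpVg00970 was 0.26 and called (edgeR adjusted p = 0.0334). For MpBPCU they were MpMYCX (MpUg00430; r = 0.9995), MpUg00010 and MpUg00420 (r = 0.999 each). All 3 were lower in the Mpmri-1-labelled libraries, with log2 fold changes of -0.77, -0.51 and -0.47 (edgeR adjusted p = 0.00133, 0.00282 and 0.00307). The ranking used these same libraries, so it favoured genes that shared the fall of MpBPCU or the steady level of MpBPCV. Nothing is therefore read from the fold changes or calls of the genes picked.

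MpMYCX, the U-linked gene whose pattern was closest to MpBPCU, had 23.0, 30.2 and 33.0 CPM in the Mpmri-1-labelled libraries, against 50.4, 49.5 and 47.7 CPM in Tak-2. For the MpFGMYB locus the 3 most alike were on the V chromosome, MpVg00710 (r = 0.996), MpVg00440 (r = 0.996) and MpVg00730 (r = 0.995). The 3 least alike were on the U chromosome, MpUg00410, MpUg00020 and MpUg00440 (r = -0.994 each). These correlations describe presence and absence by sex and, among genes detected in the same sex, the levels within it. They carry no test.

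Known regulators of sexual reproduction other than these genes were followed from a list of 13, of which 12 were in the table and 9 were tested. Between male and female libraries, where 48.6% of all genes tested were called in either direction, MpRKD and MpBELL3 were higher and MpKNOX1 lower, with a median log2 fold change of 0.14 over the list and 0.02 over all genes tested. MpRKD, a factor needed for egg cell differentiation, was higher in males by 0.19 (SE 0.0622; edgeR adjusted p = 0.0275). Between the wild types alone it was -0.11 (edgeR adjusted p = 0.343), and between Mpfer-1 and the Mpmri-1-labelled libraries it was 0.49 (edgeR adjusted p = 0.000892). MpBELL3, a homeodomain gene of the BELL family, was higher by 0.77 (edgeR adjusted p = 0.0449, and 0.0502 with DESeq2 size factors), on 4 to 24 counts a library. MpKNOX1, a KNOX homeodomain gene that acts in the egg and zygote, was lower (log2 fold change -1.14; edgeR adjusted p = 0.00681), on 1 to 25 counts a library. Between Tak-1 and Tak-2 these 2 were 0.37 (edgeR adjusted p = 0.544) and -0.49 (edgeR adjusted p = 0.313), and between Mpfer-1 and the Mpmri-1-labelled libraries 1.17 (edgeR adjusted p = 0.0255) and -1.79 (edgeR adjusted p = 0.00679). Between Tak-1 and Tak-2, 0 of the 9 tested genes were called higher and 0 lower. The calls between all male and all female libraries were thus not seen between the wild types alone. Where the 2 lines enter the comparison, line and sex cannot be told apart.

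In the Mpmri-1-labelled libraries, MpRKD was lower together with MpBPCU. Replicates A, B and C had 81.3, 94.2 and 106 CPM. Those of Tak-2 had 153, 149 and 146 CPM, so the groups did not overlap. This is a log2 fold change of -0.67 (SE 0.0885; edgeR adjusted p = 4.26e-05). In the same comparison 31.1% of all genes tested were called lower and 33.1% were lower without overlap between libraries. MpBELL1, another BELL gene, had 9, 16 and 21 counts in the Mpmri-1-labelled libraries and 0 in each Tak-2 library, which is at least 15.2-fold higher. MpBELL1 passed the filter on low counts through the Mpmri-1-labelled libraries, so its call here was set by the filter and no p is given. Of the 9 tested, these were 1 called lower and 1 called higher, the second set by the filter, with a list median of 0.07. Over all genes tested 64.1% were called in this comparison, a larger share than in the list, but the difference in share was not tested on so few genes.

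Mpfer-1 against Tak-1, where 56.2% of all genes tested were called, gave 2 called higher and 1 lower in the same list, with a median of 0.04. With library totals MpCKI1 (0.63; edgeR adjusted p = 0.0296) and MpBELL3 (1.04; edgeR adjusted p = 0.0299) were also called higher, which made 4 higher and 1 lower. MpKNOX1b was higher, at 5.28 ± 0.157 CPM in Mpfer-1 and 3.28 ± 0.224 CPM in Tak-1 (SD, n = 3 each; edgeR adjusted p = 0.000942). MpBELL1 had 19, 2 and 8 counts in Mpfer-1, against 0, 0 and 1 in Tak-1 (ratio 26, exact 95% counting interval 4.31 to 1061; edgeR adjusted p = 0.00929). MpKNOX1 fell by 1.98 (SE 0.44; edgeR adjusted p = 0.00224). MpDUO1, a MYB factor of male germ cells, was not called in either line, with log2 fold changes of -0.15 in Mpfer-1 and 0.14 in the Mpmri-1-labelled libraries, and -0.15 became 0.03 with library totals.

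Markers of sexual organs and germ cells were checked because thalli without such organs should lack them. Of 15 markers 2 were at 0 in each group. MpBNB, which specifies the germ line, had 2 counts in 1 Tak-2 library and 0 elsewhere, MpBELL2 was at 0 throughout, and the sperm genes MpPRM and MpLC7 had at most 3 counts in any library. The summed marker level was 205 to 221 CPM in Mpfer-1, 213 to 226 CPM in Tak-1, 137 to 182 CPM in the Mpmri-1-labelled libraries and 258 to 260 CPM in Tak-2. MpRKD and MpCEN1 made up nearly all of it, and MpCEN1 was 57.1 ± 9.83 CPM in the Mpmri-1-labelled libraries and 101 ± 3.01 CPM in Tak-2 (SD, n = 3 each; edgeR adjusted p = 8.78e-05). In male Tak-1 these 2 genes averaged 138 and 71.2 CPM, so their sum does not mark a single sex. Of the 10 markers tested between the Mpmri-1-labelled libraries and Tak-2, 3 were called lower, 1 higher and 6 were not called. The lower calls were MpRKD, MpCEN1 and MpTUA5, the last on 2 against 12 counts. The higher call was MpBELL1, set by the filter. Nothing is read from the calls of MpTUA5 and MpBELL1. Over all genes tested 64.1% were called there. The lower marker sum in that line thus rests on MpRKD and MpCEN1, and its part in the MpBPCU result was not tested.

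Genes of entry into the sexual phase, which in Marchantia is set by long days and far-red light, were all 8 tested. In the Mpmri-1-labelled libraries against Tak-2, where 64.1% of all genes tested were called, 3 were called lower and 5 were not called. In Mpfer-1 against Tak-1, where 56.2% of all genes tested were called, 3 were called lower and 5 were not called. With TMM scaling the called share of these 8 genes was below that of all genes, but 8 genes are few and the difference in share was not tested. With library totals 5 were lower in the Mpmri-1-labelled libraries, and in Mpfer-1 1 was higher and 1 lower. MpPIF, a bHLH factor of phytochrome signalling, fell by 0.76 (SE 0.115; edgeR adjusted p = 0.000121) in the Mpmri-1-labelled libraries and fell by 0.60 (SE 0.114; edgeR adjusted p = 0.000795) in Mpfer-1. The phytochrome MpPHY fell by 0.31 (edgeR adjusted p = 0.0056) in the Mpmri-1-labelled libraries and fell by 0.35 (edgeR adjusted p = 0.00282) in Mpfer-1. The Mpfer-1 value was -0.18 (edgeR adjusted p = 0.191) with library totals.

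In the Mpmri-1-labelled libraries MpSPL1, of the SPL transcription factors, fell by 0.38 (edgeR adjusted p = 0.0214). MpFKF, a photoperiod gene, was lower in Mpfer-1 (log2 fold change -0.16; edgeR adjusted p = 0.027), which became 0.01 with library totals. Between male and female libraries, where 48.6% of all genes tested were called, MpPIF, MpPHY and MpSPL4 were called lower. Their log2 fold changes were -0.38, -0.22 and -0.16. With library totals the last 2 became 0.05 and 0.10, that of MpPIF was -0.12 (edgeR adjusted p = 0.329), and 4 of the 8 genes were called higher.

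Of the MYB family 45 of 61 listed genes were tested beside MpFGMYB. In male against female libraries 12 were called higher and 7 lower, where 48.6% of all genes tested were called. With library totals 31 were called higher and 3 lower, where 83.4% of the calls over all genes were higher. The family median was 0.12, and that of all genes tested was 0.02. The 5 with the smallest adjusted p were MpR2R3-MYB4 (-0.46), Mp1R-MYB7 (-0.58), MpGCAM1 (1.53), Mp1R-MYB18 (3.62) and MpRR-MYB2 (-0.46), and none of these signs turned with library totals. Mp1R-MYB18 had 9 to 21 counts in male libraries and 0 to 2 in female libraries, and passed the filter through Tak-1, so its call was set by the filter. MpGCAM1, which is needed for gemma cups, averaged 4.27 ± 0.957 CPM in Mpfer-1, 2.53 ± 0.377 in Tak-1, 3.33 ± 0.772 in the Mpmri-1-labelled libraries and 0.387 ± 0.0411 in Tak-2 (SD, n = 3 each). It was thus detected in all 4 groups, unlike the MpFGMYB locus.

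**Figure D4:**
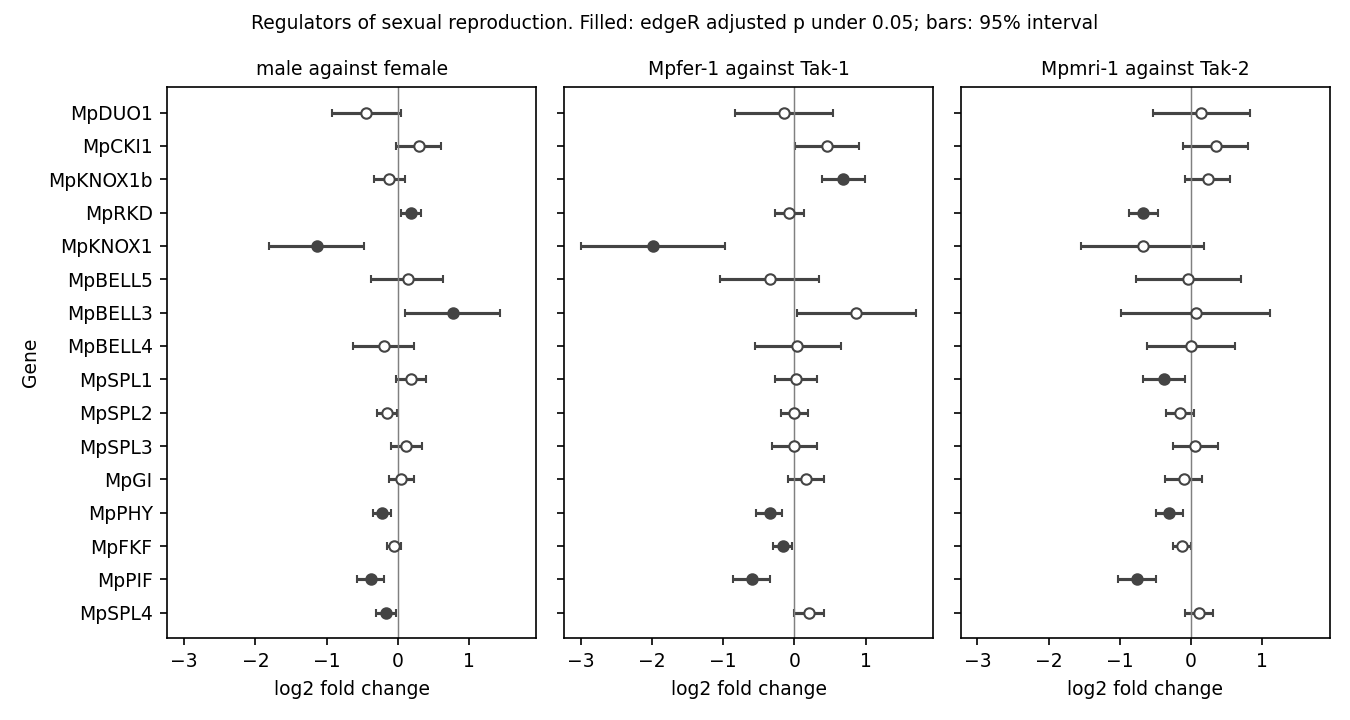
Log2 fold change of the tested regulators of sexual reproduction and of entry into the sexual phase in 3 comparisons, with 95% intervals; filled points have an edgeR adjusted p under 0.05 and MpBELL1, which was at or near 0 in the wild types, is left out. MpRKD and MpPIF are lower in the Mpmri-1-labelled libraries (-0.67 and -0.76), and MpKNOX1 is lower in Mpfer-1 (-1.98). With library totals in place of TMM scaling, MpPHY and MpSPL4 between the sexes turn to 0.05 and 0.10, and MpFKF in Mpfer-1 turns to 0.01.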

How the data were processed

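The authors deposited a table of estimated counts per transcript model for 12 poly(A)-selected, strand-keeping RNA-seq libraries, per the labels' protocols and the values, of which 65.5% were whole (tolerance 1e-09). The submitters' processing notes name FastQC, fastp and DESeq2. No quantification tool, annotation or genome build is named in the sources used here. Library totals were 25548031 to 35313206 counts. The labels' protocols mention spike-in controls, and 0 such entries were found.

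Models were summed per gene and rounded to whole numbers. Gene names other than the members' came from a RefSeq table, joined by locus number, which gave symbols to 3095 genes. Genes were tested with edgeR 4.0.16 (R 4.3.3; TMM, filterByExpr, quasi-likelihood test, 1 mean per group, Benjamini-Hochberg over 14044 genes), with 95% intervals on 8 residual degrees of freedom. "Male against female" is the mean of both male groups minus that of both female groups. The test was checked on simulated data. Alternatives were library totals, DESeq2 1.42.0 size factors and Wald test, limma 3.58.1 voom, no filter, the most abundant model, the compared groups alone, a replicate block and each library left out.

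The genes named are the 3 members, both targeted genes, the 3 most (and for MpFGMYB least) correlated genes, all neighbours of MpFGMYB, the tested reproduction lists and the 5 MYB genes with the smallest adjusted p between the sexes. Other genes named were chosen after their values were seen. The members and lists were chosen with earlier results of these data known. No gene length was used, so levels are compared within a gene only. A search for other BPC-family symbols matched none. Same-lettered replicates were not treated as pairs.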

Additional observations from a re-analysis of the deposited data

Results flagged for a closer look

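The members themselves did not meet a rule for a closer look, and groups of 3 were too small to test for outlying libraries. For 12 of the other genes named, the effect of Mpfer-1 against Tak-1 differed from that of the Mpmri-1-labelled libraries against Tak-2. Each value is the first log2 fold change minus the second, with edgeR's adjusted p for that difference; 37.3% of all genes tested were called. Among genes beside the members it was 1.39 for MpVg00320 (0.00397), -6.35 for MpUg00400 (3.64e-07), 2.13 for Mp1g17160 (0.0419), 0.47 for MpACS2 (0.00138) and 0.52 for Mp1g17260 (0.0426). MpUg00400 had 6 to 10 counts a library in Mpfer-1, 118 to 158 in Tak-1, 73 to 89 in the Mpmri-1-labelled libraries and 17 to 26 in Tak-2.

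Among markers and regulators the difference was 0.60 for MpRKD (0.00364) and 0.81 for MpCEN1 (0.00354). In the MYB family it was -2.34 for MpGCAM1 (0.000482), -0.45 for MpR2R3-MYB4 (0.0024) and -0.36 for Mp1R-MYB7 (0.0222). The last 2 became -0.14 (0.372) and -0.05 (0.77) with library totals. For the targeted genes it was -0.87 for MpFER (0.000208) and -1.46 for MpMRI (3.6e-06).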

How the results depend on the processing

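The alternatives gave 159 values of the members. Some were fixed in advance: the calls of the MpFGMYB locus between the sexes and the absence of MpBPCV and MpBPCU from the other sex. Nothing is read from these. Of all 159 values, 158 kept their direction and their side of the threshold. The exception was the MpFGMYB locus in the Mpmri-1-labelled libraries against Tak-2. Its edgeR adjusted p of 0.0618 lay between 0.0378 (without Tak-2 replicate A) and 0.224 (without Tak-2 replicate C) when 1 library was left out, on 0 against at most 3 counts. For MpBPCU in the Mpmri-1-labelled libraries against Tak-2, the log2 fold change was -0.70 with library totals and -0.60 to -0.51 with 1 library left out. For MpBPCV in Mpfer-1 against Tak-1 it was 0.22 with library totals (edgeR adjusted p = 0.0891), where the median of all genes moved to 0.20. For the MpFGMYB locus in that comparison it was 0.36 with library totals and 0.06 for the most abundant model. Same-lettered libraries correlated at 0.0519 to 0.168 between Mpfer-1 and Tak-1, where other letters gave -0.104 to -0.00145. Between Mpfer-1 and the Mpmri-1-labelled libraries the order was reversed, at -0.249 to -0.0805 for the same letter and -0.0716 to 0.263 for others. In the remaining pairs of groups the ranges overlapped, so the letters gave no steady sign of pairing. With a replicate block MpBPCU was -0.56 (edgeR adjusted p = 0.00741), MpBPCV 0.04 and the MpFGMYB locus 0.16, and no call of a member changed. Library totals moved 9 of 18 list counts by over 1.5 times. The compared groups alone gave no value for the MpFGMYB locus in females, where it was filtered out. With 3 libraries a group and female counts near 0, small changes at the MpFGMYB locus within females were not detectable.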

Other observations

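The MpFGMYB locus is 1 of 8 autosomal genes, by identifier, that were higher in all male than in all female libraries with at most 3 counts over the females. These genes were picked after their values were seen. The others were Mp1g02510, MpCupin2 (Mp1g16650), MpUGT21 (Mp4g19080), Mp4g20540, Mp4g21910, Mp5g12630 and Mp7g11270. Mp4g20540 held 4927 counts over the males, at 18.2 to 31.1 CPM a library, against 1 count over the females. The MpFGMYB locus was at 3.24 to 4.89 CPM in males. In the opposite direction 2 autosomal genes were found, Mp4g18880 with 55 counts over the females and MpMTPSL22 (Mp6g11710) with 80, against 0 over the males for both. MpTUA5, an alpha-tubulin gene listed among the sperm markers, had 10, 7 and 12 counts in Mpfer-1, 29, 26 and 25 in Tak-1, 0, 2 and 0 in the Mpmri-1-labelled libraries and 4 each in Tak-2. It passed the filter on low counts through Tak-1, where it is high, so no test of it is given and nothing is read from its call among the markers.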
